A study of Mus musculus with 6 samples.

Results

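Dendritic cells of a mouse mammary tumor were examined in 3 single-cell RNA libraries, each made after a different way of breaking the tissue apart. Dendritic cells take up antigen, load it on MHC molecules and show it to T cells. Conventional type 1 cells carry the chemokine receptor Xcr1 and present captured antigen to CD8 T cells, type 2 cells favour CD4 T cells, and cells of either kind that mature switch on Ccr7, the receptor that guides them to the lymph node. Cells derived from monocytes can carry type 2 genes such as Cd209a as well, so these lines are not sharp in tumors.

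The tissue was breast tumor from 10 week old female MMTV-PyMT mice, in which the mammary tumor virus promoter drives the polyoma middle T oncogene in mammary epithelium. Tissue was minced and digested with type I collagenase either by a conventional 60 min digest (control) or in a microfluidic platform with a 15 min or a 60 min interval, and live cells were sorted before droplet capture. Each condition is 1 library, so no spread between replicates could be measured, and no test between conditions was possible. The methods call the 15 and 60 min platform samples intervals, a mode in which the suspension is collected and processing goes on with fresh enzyme. In that mode the 60 min sample holds cells collected after the 15 min collection, whereas the control was a single 60 min digest. The study states that conditions of a replicate used tissue of 1 source mouse.

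The dendritic cells were selected on their own counts. A cell was kept if it had 200 to 4000 detected genes and at most 25% mitochondrial counts, and it was a member if it held at least 2 UMIs (unique molecules counted) of Flt3, Xcr1, Ccr7 and Cd209a together and at least 10 of Cd74. It also had to hold at most 2 UMIs of C1qa, C1qb and C1qc together, at most 1 of Chil3 and Ly6c2, and none of Cd3g or Cd79a. Of 24527 deposited tumor cells, 17562 were kept and 185 were members. Members were deep cells, with a median of 14281 UMIs (control), 13640 UMIs (15 min) and 14401 UMIs (60 min), and none of their barcodes was shared between libraries. Intervals given with these values are 95% intervals that cover counting error only.

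Near the thresholds the selection was sharp on some genes and not on others. With all other conditions met, 139 cells held 0 UMIs of the 4 selecting genes, 20 held 1 UMI and 17 held 2. For complement C1q, 9 members held 2 UMIs and 2 further cells held 3. No cell held 10 to 19 UMIs of Cd74, whereas 175 members held 50 or more.

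The label was checked mainly on genes outside the selection. Comparison cells were also set by their counts: macrophages held at least 10 UMIs of the C1q genes, monocytes at least 4 of Chil3 and Ly6c2, and epithelial cells at least 5 of Epcam, Krt8 and Krt18 and none of Ptprc. Selecting genes that stand in these lists widen the gaps by construction. All 12 genes of a general dendritic cell list, which holds the selecting gene Flt3, were measured, and their summed level was 2064 CPM (a gene's UMIs divided by all UMIs of those cells, times 1000000) in the control, 2886 CPM at 15 min and 2630 CPM at 60 min, against 47.1 CPM in epithelial cells, 1531 CPM in macrophages and 924 CPM in monocytes of the same tumor. The list thus set members apart from epithelium far more than from other myeloid cells, but the limits on Ptprc and Cd74 favoured a low level in epithelium. Zbtb46, a transcription factor of conventional dendritic cells, was found in 66 members, and its level in macrophages was 0.458 CPM. Itgax, which encodes CD11c, was found in 113. The 139 cells without the 4 selecting genes held Itgax at 105 CPM, against 108 CPM in members with 50 or more UMIs of Cd74. The class II gene H2-Aa was at 5850 CPM in those 139 cells and 9621 CPM in those members. Whether the 139 are dendritic cells was not tested. Several defining genes of other lineages were at 0 in members. Of 12 T and NK cell genes 7 had no UMI, among them Cd3e, Cd3d, Trac, Nkg7 and the selecting gene Cd3g. The 12 summed to 102, 39.4 and 39.6 CPM in the control, 15 min and 60 min libraries, in 18, 7 and 31 members. Macrophages held them at 15.7 CPM and monocytes at 67.4 CPM. Of 7 B cell genes 4 had no UMI, among them Pax5 and the selecting gene Cd79a. The 7 summed to 75.1, 108 and 92.5 CPM, in 25, 14 and 59 members, against 133 CPM in macrophages. Mertk of macrophages had no UMI in any member. The summed level of 14 macrophage genes was 324 to 604 CPM, against 70758 CPM in tumor macrophages, and that of 10 monocyte genes was 364 to 815 CPM, against 12148 CPM in tumor monocytes. Milk and keratin genes of the epithelium were present at 698 to 1394 CPM over 10 genes, against 44492 CPM in epithelial cells, highest at 60 min, and their part in the results was not tested. Leaving out members with 3 or more UMIs of Epcam, Krt8 and Krt18, or any of Cd3e, Cd3d or Cd79b, left 101 of the 185, with 21, 15 and 65 in the control, 15 min and 60 min libraries.

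Dendritic cells were recovered in unequal shares. The control yielded 49 members of 5736 kept cells (0.854%, exact binomial interval 0.633 to 1.13%). The 15 min interval yielded 23 of 5802 (0.396%, 0.251 to 0.594%), and the 60 min interval 113 of 6024 (1.88%, 1.55 to 2.25%). The 3 intervals did not overlap. The share at 60 min was 2.20 times that of the control (1.57 to 3.06) and 4.73 times that at 15 min (3.03 to 7.40), while the share at 15 min was 0.464 times that of the control (0.283 to 0.761).

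The order held among leukocytes. Of cells with a UMI of Ptprc, which encodes CD45, members made up 2.81% (control), 1.42% (15 min) and 5.23% (60 min). Macrophages moved less, at 1.52 times the control share at 60 min (1.41 to 1.65) and 1.07 times at 15 min (0.986 to 1.17). Monocytes were at 1.03 times at 60 min (0.730 to 1.45). Release of a type from the tissue and its content in the pieces digested cannot be told apart with 1 library a condition.

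**Figure D1:**
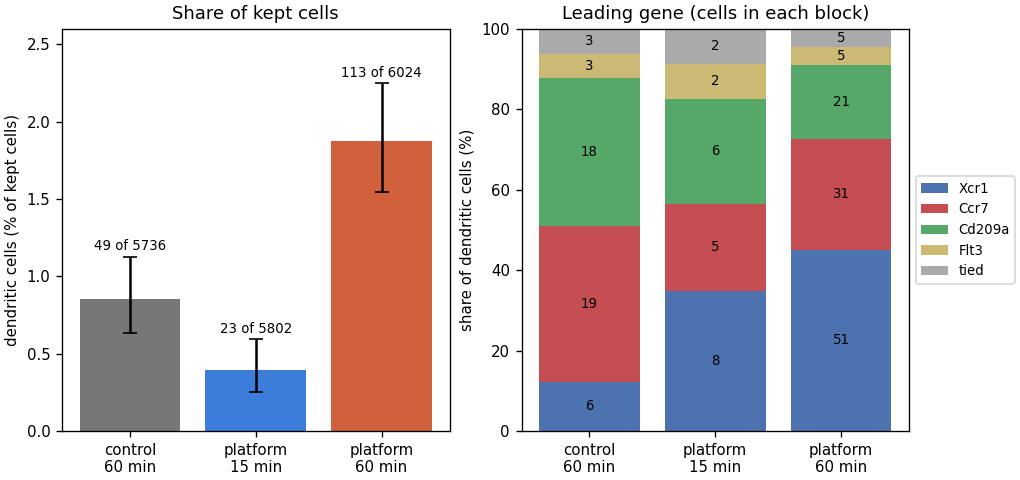
Left, dendritic cells as a percentage of kept cells in each library, with exact 95% binomial intervals and the numbers of cells. Right, the percentage of dendritic cells led by each selecting gene, with the number of cells in each block; the Xcr1 block grows from 6 of 49 cells in the control to 51 of 113 at 60 min.

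Each member was placed with the selecting gene of which it held the most UMIs. Xcr1 led 65 cells, Ccr7 55, Cd209a 45 and Flt3 10, and 10 were tied. Xcr1 (chromosome 9, 123852315 to 123862029 in GRCm38) and Cd209a (chromosome 8, 3743397 to 3748984) were nearly exclusive, with 3 members holding both. Flt3, the receptor for the growth factor that sustains dendritic cells, was the most widespread, in 115 members and with at most 6 UMIs in a cell. Ccr7 reached 86 UMIs in a cell.

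The make-up differed between libraries. Cells led by Xcr1 were 6 of 49 in the control (12.2%, 4.63 to 24.8%), 8 of 23 at 15 min (34.8%, 16.4 to 57.3%) and 51 of 113 at 60 min (45.1%, 35.8 to 54.8%). The share at 60 min exceeded the control by 32.9 percentage points (18.0 to 44.1). Cells led by Cd209a went the other way, at 18, 6 and 21 cells, and the 60 min share was 18.2 points below the control (difference -18.2, interval -33.4 to -3.58). For cells led by Ccr7, at 19, 5 and 31 cells, the interval of the 60 min difference held 0 (-27.2 to 3.86). Differences between the platform intervals were within counting error for all 3 groups. When only cells without the other 3 selecting genes were placed in a group, the Xcr1 difference between 60 min and the control fell to 10.3 points (0.422 to 17.9). That limit left out the 65 of 87 members with Xcr1 that also held Flt3, while shares stayed over all members. Levels over all members move with this make-up, so levels within a group are given beside several of them. The Xcr1, Ccr7 and Cd209a groups were also given equal weight, for the genes named for large ratios between conditions. Of these, 19 of 20 stayed at least 2-fold at 15 min against the control and 19 of 20 at 60 min against the control. All 20 of 20 did at 60 min against 15 min. The part of make-up in the levels of other genes was not tested.

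The genomic sequence upstream of the leading genes is shown because cells led by Cd209a also carried its neighbour Cd209d. These are the 250 bases before and 50 after the RefSeq start in GRCm38.p6, 5′ to 3′ on the gene's strand, with capitals marking the ETS-IRF composite element, searched on both strands as GGAA and GAAA separated by any 2 bases. Fscn1 stands for the Ccr7 group.
Xcr1 (chr9:123861980-123862279, minus strand): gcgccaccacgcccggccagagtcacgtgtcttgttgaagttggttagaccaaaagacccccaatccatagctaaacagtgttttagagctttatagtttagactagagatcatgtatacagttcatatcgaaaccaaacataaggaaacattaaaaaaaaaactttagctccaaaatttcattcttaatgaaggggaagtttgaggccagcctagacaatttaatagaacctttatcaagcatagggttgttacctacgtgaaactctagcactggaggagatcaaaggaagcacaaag
Fscn1 (chr5:142960105-142960404, plus strand): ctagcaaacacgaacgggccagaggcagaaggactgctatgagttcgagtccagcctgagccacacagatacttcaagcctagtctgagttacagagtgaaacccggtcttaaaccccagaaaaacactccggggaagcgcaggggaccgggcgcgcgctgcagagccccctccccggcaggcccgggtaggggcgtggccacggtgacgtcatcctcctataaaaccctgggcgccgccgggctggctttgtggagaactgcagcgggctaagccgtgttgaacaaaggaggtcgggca
Cd209a (chr8:3748935-3749234, minus strand): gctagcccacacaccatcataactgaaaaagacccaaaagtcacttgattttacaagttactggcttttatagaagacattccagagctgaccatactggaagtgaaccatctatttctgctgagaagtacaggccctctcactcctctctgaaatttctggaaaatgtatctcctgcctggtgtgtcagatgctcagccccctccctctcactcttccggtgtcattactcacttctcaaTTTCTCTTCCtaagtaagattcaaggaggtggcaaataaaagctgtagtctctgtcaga
Cd209d (chr8:3878450-3878749, minus strand): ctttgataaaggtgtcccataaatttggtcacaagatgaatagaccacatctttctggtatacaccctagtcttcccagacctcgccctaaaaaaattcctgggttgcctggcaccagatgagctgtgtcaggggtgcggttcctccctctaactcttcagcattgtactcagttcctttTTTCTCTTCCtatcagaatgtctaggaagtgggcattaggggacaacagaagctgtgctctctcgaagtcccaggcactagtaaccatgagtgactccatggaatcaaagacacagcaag
Both Cd209 windows held 1 match each, in the same 10 letters, and the other windows held none. An NF-kB motif was searched as well and had no match in these windows. The ETS-IRF motif was found in 2.72% of 32817 promoter windows of this length, and a match is a description and not a bound site. In a list of type 2 genes 2 of 14 windows held it, those of Cd209a and Cd209d themselves. Among the genes named for the Cd209a group it was in 1 of 11, that of Clec4a1.

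Cells led by Xcr1 carried the type 1 programme. Of 4558 genes with at least 50 UMIs over the members, 85 were at least 2-fold higher in these cells than in other members in each of the 3 libraries (1.86%), and 12 of 17 measured genes of the type 1 list were among them, Xcr1 itself included. Since the cells were grouped by one of their own genes, these are descriptions without a test. Naaa, a lysosomal hydrolase, stood at 1675 CPM in the Xcr1 group, 98.5 CPM in the Ccr7 group and 333 CPM in the Cd209a group. Irf8, the transcription factor that type 1 cells depend on, stood at 1176 CPM in the Xcr1 group and 992 CPM in the Ccr7 group, against 104 CPM in the Cd209a group. Wdfy4, needed for cross-presentation, was at 410 CPM in the Xcr1 group, and Itgae, the CD103 integrin chain, at 371 CPM. Cd207, which encodes langerin, reached 763 CPM, with 531 CPM in the control, 810 CPM at 15 min and 784 CPM at 60 min within the group. The double-stranded RNA sensor Tlr3 was at 61.2 CPM there and had no UMI in the Cd209a group.

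Cells led by Ccr7 carried a maturation programme. In them 271 genes (5.95%) were at least 2-fold above other members in every library, and 19 of 20 measured genes of the mature list were among them, Ccr7 itself included. Fscn1, an actin-bundling protein of migrating dendritic cells, was at 1370 CPM in the Ccr7 group, 2.01 CPM in the Xcr1 group and 0 in the Cd209a group. Ccl5, a T cell attractant, was at 4858 CPM in the Ccr7 group, Il12b, the p40 subunit of interleukin 12 and 23, at 1842 CPM, and Ccl22, which attracts regulatory T cells, at 1244 CPM. The inhibitory ligand Cd274 (PD-L1) was at 193 CPM in this group, 17.1 CPM in the Xcr1 group and 26.3 CPM in the Cd209a group. H2-DMa, a chain of the class II peptide loading factor, was at 318 CPM in the Ccr7 group, 1062 CPM in the Xcr1 group and 1079 CPM in the Cd209a group. Of 13 class II genes, 3 were at least 2-fold lower and 1 higher in the Ccr7 group in every library. Of all 4558 measured genes, 155 were lower and 271 higher in this way. H2-Oa was at 143 CPM in the Ccr7 group against 144 CPM in the Cd209a group.

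The Ccr7 group was not uniform. Fscn1 was detected in 36 of its 55 cells, 13 of 19 in the control, 5 of 5 at 15 min and 18 of 31 at 60 min. This division was chosen after the values were seen. Cells with Fscn1 held a median of 39 Ccr7 UMIs and cells without it 15. Clec10a, a lectin of type 2 cells, was at 2.33 CPM in the former and 612 CPM in the latter, and Ccl5 at 8131 and 20.6 CPM. Cd14, a monocyte gene, was at 93.0 CPM with Fscn1 and 1512 CPM without it.

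Cells led by Cd209a carried type 2 and monocyte-linked genes together. In them 161 genes (3.53%) were at least 2-fold above other members in every library, with 10 of 17 measured genes of the type 2 list, Cd209a itself included. Clec10a was at 1036 CPM in the Cd209a group and 49.2 CPM in the Xcr1 group. Itgam, which encodes CD11b, was at 130 CPM in the Cd209a group and 0 in the Xcr1 group. The chemokines Cxcl2, Ccl9 and Ccl6 were at 4003, 609 and 584 CPM in the Cd209a group. Tumor macrophages held Cxcl2 at 5731 CPM and the receptor Mrc1 at 149 CPM, against 116 CPM of Mrc1 in these cells, whereas C1qa, used by the selection, was at 6.19 CPM in the group.

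Small sets stood apart. The 10 cells led by Flt3 held Ltb, a lymphotoxin chain, at 664 CPM and Tubb5 at 945 CPM. At least 3 of 7 cycle genes (Mki67, Top2a, Birc5, Cdk1, Ccna2, Rrm2, Pclaf) were detected in 15 of 185 members, 7 of them led by Cd209a and 1 led by Ccr7, and these were deep cells with a median of 19539 UMIs. A single cell at 60 min, with 7353 UMIs in all, held 24 UMIs of Ly6d, 20 of Ccr9, 19 of Klk1 and 15 of Siglech, genes of plasmacytoid dendritic cells. Klk1 had no UMI in any other member.

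**Figure D2:**
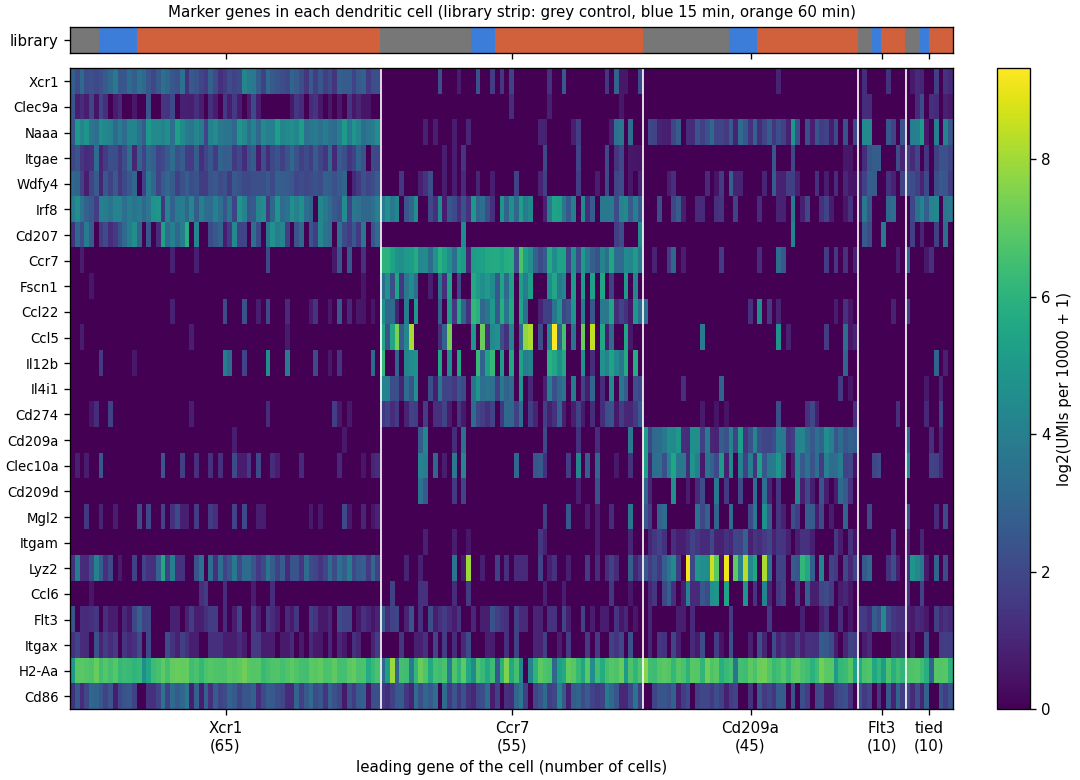
Levels of 25 genes (rows) in the 185 dendritic cells (columns) as log2(UMIs per 10000 + 1), ordered by leading gene and library; the strip gives the library. The Xcr1, Ccr7 and Cd209a blocks carry separate gene sets, and Fscn1 is missing from 19 of the 55 cells led by Ccr7.

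Levels in members were next compared between conditions as sums of UMIs, with a gene called where its CPM differed at least 2-fold. At 15 min against the control, 373 of 4558 genes were called higher (8.18%) and 370 lower (8.12%). At 60 min against the control 146 were higher (3.20%) and 163 lower (3.58%). At 60 min against 15 min 284 were higher (6.23%) and 262 lower (5.75%). The 15 min library held 304954 member UMIs, against 718851 in the control and 1589562 at 60 min, so its counts are the least precise.

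Immediate early genes did not share 1 order. Fos, a transcription factor induced within minutes of stimulation, was at 626 CPM in the control (569 to 687), 2459 CPM at 15 min (2286 to 2642) and 1302 CPM at 60 min (1247 to 1360), in 42, 22 and 106 cells. Its level at 15 min was 3.93 times that of the control (3.49 to 4.43). The order was the same within the Xcr1, Ccr7 and Cd209a groups, with 979, 3323 and 1535 CPM in the Xcr1 group. Egr1 was at 89.0, 433 and 158 CPM in the control, 15 min and 60 min libraries, 4.86 times the control at 15 min (3.58 to 6.66). In the Ccr7 group Egr1 was instead highest at 60 min, with 2, 1 and 60 UMIs. Ier2 and Klf2 were 2.95 and 2.78 times the control at 15 min. The nuclear receptor Nr4a1 was highest at 60 min, at 124, 298 and 422 CPM, and Nr4a3 was lowest at 15 min, at 309, 177 and 308 CPM. Of 22 further immediate early and heat shock genes, 5 were called higher and 3 lower at 15 min against the control. The shares over all measured genes were 8.18% and 8.12%. Atf3, a stress-induced factor, was high in both platform libraries, at 227 CPM in the control, 872 CPM at 15 min and 927 CPM at 60 min.

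Inducible heat shock genes had another order. Hspa1a, an inducible chaperone, was at 856 CPM in the control, 371 CPM at 15 min and 1836 CPM at 60 min, 4.95 times higher at 60 than at 15 min (4.10 to 6.03). Hspa1b was at 285, 88.5 and 711 CPM in the same libraries. The Hspa1a and Hspa1b copies are near-identical, so how reads were divided between them is uncertain. Hsp90aa1 was at 812 CPM in the control, 630 CPM at 15 min and 1329 CPM at 60 min. All 3 were lowest at 15 min and highest at 60 min, while Hspa8, a constitutive chaperone, was lowest in the control.

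Of the 12 stress genes that the study draws singly, 5 were called higher and none lower at 15 min against the control. At 60 min 4 were higher and none lower. Over all measured genes 8.18% were higher and 8.12% lower at 15 min, and 3.20% and 3.58% at 60 min. Their summed level was 8960 CPM in the control, 12386 CPM at 15 min and 12685 CPM at 60 min. That sum was 1.38 times the control at 15 min (1.33 to 1.44) and 1.42 times at 60 min (1.38 to 1.46). With each cell thinned to 2000 UMIs, members held 18.6 ± 9.0 stress UMIs in control cells (SD over cells, n = 49), 24.7 ± 12.5 in the 15 min cells (n = 23) and 25.8 ± 13.5 in the 60 min cells (n = 112), so single cells overlapped widely. Within the Ccr7 group the 15 min sum was 1.04 times the control (0.941 to 1.15).

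**Figure D3:**
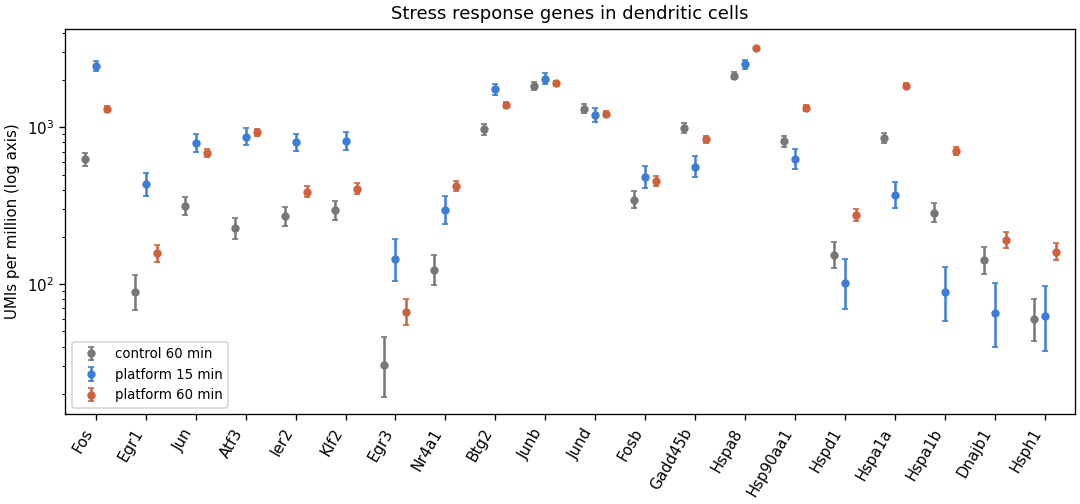
CPM (log axis) of 20 stress response genes in the dendritic cells of each library, with exact 95% Poisson intervals. Fos, Egr1, Ier2 and Klf2 are highest at 15 min, and Hspa1a and Hspa1b are lowest there.

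Several genes among those with the largest ratios were low at 15 min and higher in both 60 min libraries. They were picked for that pattern, and other activation genes lacked it, such as Cd83 at 694, 774 and 975 CPM in the control, 15 min and 60 min libraries and Il12b at 409, 823 and 586 CPM. Hilpda, a lipid droplet protein induced by low oxygen, had 251 UMIs in 27 control cells (349 CPM), 4 UMIs in 4 cells at 15 min (13.1 CPM) and 380 UMIs in 53 cells at 60 min (239 CPM). It was 26.6-fold lower at 15 min than in the control. Cd14, a co-receptor for bacterial lipopolysaccharide, was at 1578 CPM in the control, 154 CPM at 15 min and 715 CPM at 60 min. Of its 47 UMIs at 15 min, 61.7% came from 1 cell. The neutrophil attractant Cxcl2 was at 1454, 108 and 1437 CPM in the control, 15 min and 60 min libraries, with 39.7% of the control UMIs and 75.8% of the 15 min UMIs in 1 cell each. Crem, a repressor of cAMP-driven transcription, was at 149, 16.4 and 106 CPM, and Plaur, the urokinase receptor, at 174, 16.4 and 70.5 CPM. Cxcl1 had no UMI at 15 min, at least 11.9-fold lower than the control against a floor of 3 counts in that library. Hilpda, Cd14 and Cxcl2 were lowest at 15 min in each of the 3 groups.

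Cytokine and chemokine genes varied in their order. Il1b was at 1817 CPM in the control (1720 to 1918), 823 CPM at 15 min (724 to 931) and 3904 CPM at 60 min (3808 to 4003). Its level was highest at 60 min in each group, reaching 7871 CPM in cells led by Cd209a. Ccl4 was at 554, 266 and 2163 CPM in the control, 15 min and 60 min libraries, but 71.9% of its control UMIs came from 1 cell. Ccl3 was at 93.2, 29.5 and 480 CPM, in 4, 4 and 44 cells, 5.15 times higher at 60 min than in the control (4.01 to 6.71). Tnf was at 62.6 CPM in the control, 39.4 CPM at 15 min and 248 CPM at 60 min. Ccl22 was highest at 15 min, at 337, 633 and 338 CPM, and Cxcl1 was highest in the control. Of 14 measured chemokine genes, 5 were called higher and 3 lower at 60 min against the control, 3 higher and 7 lower at 15 min against the control, and 7 higher and 3 lower at 60 min against 15 min. Of 7 measured cytokine genes, 3 were higher and none lower at 60 min against the control, and 4 higher and none lower at 60 min against 15 min. The shares over all measured genes were 3.20% higher and 3.58% lower at 60 min against the control. They were 8.18% and 8.12% at 15 min against the control, and 6.23% and 5.75% at 60 min against 15 min. Cxcl9 and Cxcl10 rested on few cells, with 81.2% of the 60 min UMIs of Cxcl9 in 1 cell and 92.5% of the 15 min UMIs of Cxcl10 in another.

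**Figure D4:**
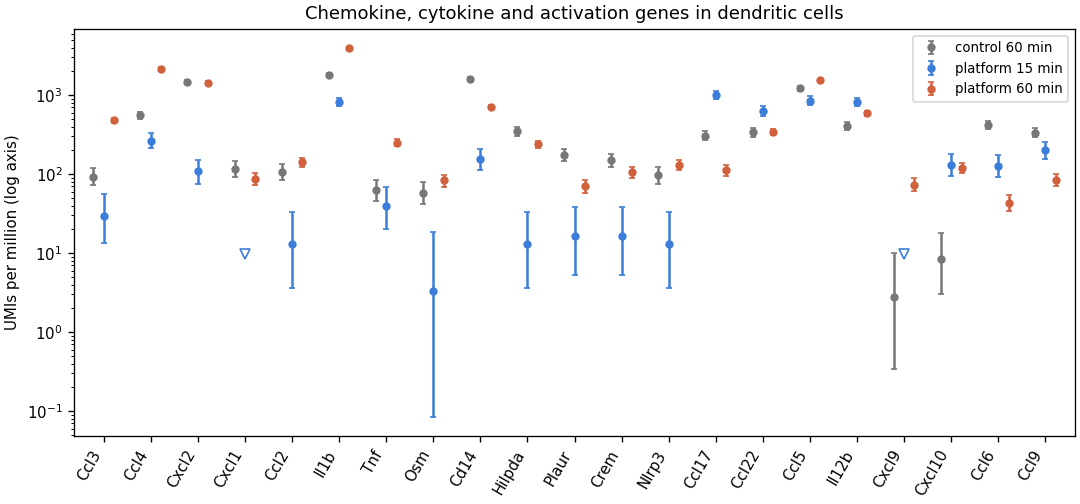
CPM (log axis) of chemokine, cytokine and activation genes in the dendritic cells of each library, with exact 95% Poisson intervals; open triangles stand at the floor of 3 counts for a gene without a UMI. Hilpda, Plaur, Crem and Nlrp3 are near the bottom at 15 min, and Il1b, Ccl3, Ccl4 and Tnf are highest at 60 min.

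Type 1 and type 2 genes differed between libraries in the same directions as the groups. Cebpb, a myeloid transcription factor, was at 540 CPM in the control, 78.7 CPM at 15 min and 123 CPM at 60 min. Of 17 measured type 2 genes, 9 were called lower at 60 min against the control, Cd209a itself included, and none higher. Of 17 type 1 genes 7 were higher, Xcr1 itself included, and none lower. Among all measured genes 3.58% were lower and 3.20% higher in that comparison. Cd209a and Xcr1 also set the groups. Mrc1 remained lower within the Cd209a group itself, at 183, 134 and 48.0 CPM in the control, 15 min and 60 min libraries. Wfdc17, a secreted protein of activated myeloid cells, was at 881 CPM in the control, 279 CPM at 15 min and 245 CPM at 60 min. Mmp12, a macrophage elastase, went the other way, at 20.9, 19.7 and 239 CPM, with 25.1, 80.1 and 760 CPM inside the Cd209a group. Over all measured genes 8.18% were higher at 15 min against the control and 5.75% lower at 60 min against 15 min. Of 13 class II genes, none was called at 60 min against the control. Of them, 2 were higher at 15 min against the control and 2 lower at 60 min against 15 min. Ciita, their master regulator, was at 75.1 CPM in the control, 243 CPM at 15 min and 109 CPM at 60 min. Ccl17 was at 306, 994 and 111 CPM in those libraries, but in 5 cells at 15 min.

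Some genes with large ratios at 60 min against the control had few control UMIs. Gna15, a G protein subunit, was at 8.35 CPM in the control, 55.7 CPM at 15 min and 46.6 CPM at 60 min, and at 73.3 CPM in the Xcr1 group against 4.16 CPM in the Ccr7 group. Jaml, an adhesion molecule, was named for its ratio at 15 min against the control instead, and had 81 control UMIs. Its level was 113, 374 and 215 CPM in the control, 15 min and 60 min libraries, less than 2-fold higher at 60 min. The transcription factor Hhex was at 5.56 CPM in the control and 35.2 CPM at 60 min, from 4 and 56 UMIs.

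Interferon-induced genes were uneven. Of 14 measured, 9 were called higher and 1 lower at 15 min against the control, and 6 higher and none lower at 60 min. Over all measured genes 8.18% were higher and 8.12% lower at 15 min, and 3.20% and 3.58% at 60 min. Irf7, the amplifier of type I interferon, was at 54.3, 171 and 121 CPM in the control, 15 min and 60 min libraries, but 48.1% of the 15 min UMIs came from 1 cell. Of the UMIs of Isg15 at 15 min, 63.0% came from 1 cell.

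Of 14 measured class I and cross-presentation genes, 1 was called higher at 15 min than in the control, and of 7 costimulation genes 1, against 8.18% of all genes. The class I gene was Tap1, the peptide transporter, at 97.4 CPM in the control and 239 CPM at 15 min. Cd86, a ligand of the T cell receptor CD28, was at 344, 289 and 393 CPM in the control, 15 min and 60 min libraries. Of 14 measured cell cycle genes, 8 were called higher at 15 min than in the control, where Top2a rested on 3 cells.

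**Figure D5:**
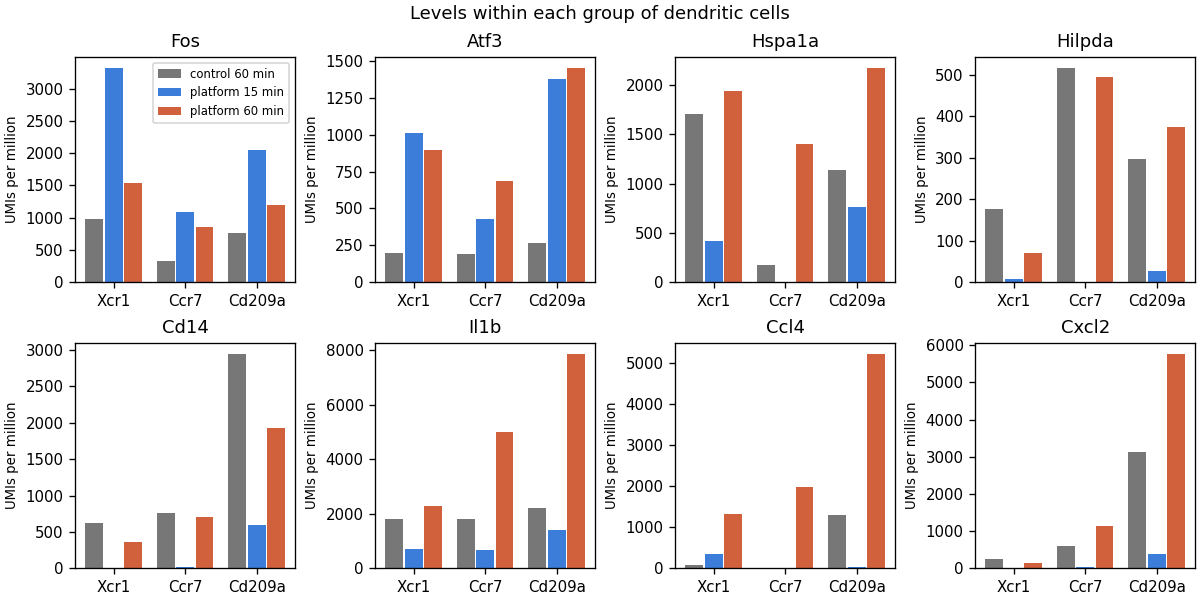
CPM of 8 genes in cells led by Xcr1, Ccr7 and Cd209a in each library, without error bars; bars start at 0. Fos is highest at 15 min and Il1b and Ccl4 at 60 min in each group, and Hilpda, Cd14 and Cxcl2 are lowest at 15 min in each group.

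Neighbouring myeloid cells are given beside these values. In tumor macrophages Fos was at 917 CPM in the control, 4488 CPM at 15 min and 2954 CPM at 60 min, the same order as in dendritic cells. Cxcl2 was at 6407, 1618 and 7550 CPM in macrophages, lowest at 15 min as in dendritic cells. In dendritic cells its control and 60 min levels were close, at 1454 and 1437 CPM. Within groups it was highest at 60 min in cells led by Ccr7 and Cd209a, and in the control in cells led by Xcr1. Il1b was at 5232 CPM in macrophages of the control, 3104 CPM at 15 min and 4838 CPM at 60 min. No test of the difference between cell types was possible with 1 library a condition.

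Kidney cells that met the same selection (under the study's kidney limits of 3000 genes and 50% mitochondrial counts) numbered 100 of 5886 in the control, 12 of 8390 at 15 min and 217 of 9936 at 60 min, from male 12 week old C57BL/6 mice. The share was lowest at 15 min in both tissues. Cd209a led 194 of the 329 kidney cells. H2-Eb1, the beta chain of the class II molecule I-E, was at 174, 200 and 193 CPM in the tumor control, 15 min and 60 min libraries, against 13230, 11997 and 10743 CPM in kidney, while H2-Ab1 was at 12769, 10877 and 11016 CPM in tumor and 14014, 13438 and 11490 CPM in kidney. Tissue, mouse line (MMTV-PyMT or C57BL/6), sex and age differ together between these cells and cannot be told apart. The methods do not give the background strain of the MMTV-PyMT mice. Itgae was at 86.2 to 220 CPM in tumor and 8.34 to 20.1 CPM in kidney.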

How the data were processed

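Single-cell libraries (10x v3) of 3 tumor and 3 kidney samples were used. According to the methods and labels, the authors aligned reads to mm10 with Cell Ranger 3.1.0 and equalised depth between libraries with its aggregation step, and the deposited values are UMI counts per gene and cell. Barcode suffixes were tied to libraries through the deposited aggregation table.

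From these counts, cells were filtered with the study's limits and members selected as described. The members and gene lists were chosen with earlier results of these data known. UMIs were summed per library and divided by the members' total (CPM). Genes with at least 50 UMIs over members were measured. Named genes were, per list, the 5 highest and those differing 2-fold; per pair of conditions, up to 10 each way without 1 cell holding over 25% of UMIs; and up to 12 per group. Intervals were exact binomial, Poisson or conditional binomial, Newcombe for share differences and log-scale for share ratios, with a floor of 3 counts. Calls were tested on simulated data drawn as Poisson counts from a pooled profile, which holds no spread between cells and so covers counting error only. Python 3.11.15, numpy 2.4.6, scipy 1.17.1 and scanpy 1.11.5 were used, and promoter sequences came from RefSeq. The tumor libraries held 90414805 to 101222030 UMIs. Beyond the 4000 gene ceiling, no step took out doublets.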

Additional observations from a re-analysis of the deposited data

Results flagged for a closer look

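The summed level of the 12 stress genes moved in opposite directions in the 2 tissues at 15 min. In tumor dendritic cells it was 1.38 times the control (1.33 to 1.44), and in the kidney cells that met the same selection it was 0.720 times the control (0.672 to 0.770). The 15 min kidney library held 12 such cells, each condition is 1 library, and the difference was not tested.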

How the results depend on the processing

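The order of the 3 shares of kept cells was the same under the alternatives run on the selection. Shares moved beyond their counting interval to 0.610% in the control and 1.31% at 60 min with members without C1q UMIs only, to 1.20% and 2.55% with a mitochondrial limit of 10%, and to 0.366% and 1.08% without members holding epithelial, T or B cell UMIs. With cells thinned to 3000 UMIs the 60 min share was 1.37%. The Xcr1 difference between 60 min and the control was 10.3 points (0.422 to 17.9) with groups limited to cells without the other selecting genes. The cause of these shifts was not tested.

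The summed stress level at 15 min against the control was 1.44 and 1.5 with a minimum of 1 and 3 UMIs of the selecting genes, 1.29 without an upper limit on genes, 1.48 after thinning, 1.24 without members holding other lineages' UMIs, and 1.56, 1.04 and 1.20 within the Xcr1, Ccr7 and Cd209a groups. At 60 min against the control it was 1.31 without C1q, 1.18 without the upper limit, 1.55 after thinning, 1.25 without the other lineages' UMIs, and 1.31, 1.53 and 1.49 within the groups. At 60 min against 15 min it was 0.989 and 0.969 with the minimum of 1 and 3 UMIs, 0.977 without C1q, 0.916 without the upper limit, and 0.840, 1.47 and 1.24 within the groups, so the platform intervals have no stable order.

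Counts of genes called depended on the UMI minimum. With 20 UMIs they were 968 higher and 704 lower at 15 min against the control, 423 and 390 at 60 min against the control, and 568 and 737 at 60 min against 15 min. With 200 UMIs they were 55 and 100, 38 and 41, and 81 and 30. Without C1q, 153 were lower at 60 min against 15 min. Without other lineages' UMIs, 246 were lower at 15 min against the control and 187 higher at 60 min against 15 min. Hspb1, higher at 60 than at 15 min, turned to 0.172 times without the upper limit on genes. Scrublet marked 0.0523% of control cells, so it has not worked there, and 1 member in all. No paired analysis was possible because each condition is 1 library. Depth per cell was alike between libraries, but the 15 min values rest on 23 cells.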

Other observations

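Cd209d, the neighbour of Cd209a, was at 273 CPM in cells led by Cd209a, 49.9 CPM in cells led by Ccr7 and 0 in cells led by Xcr1. The cytokine Osm had 42 UMIs (control), 1 UMI (15 min) and 132 UMIs (60 min), and the inflammasome sensor Nlrp3 had 70, 4 and 209 UMIs. Il1rn, the interleukin 1 receptor antagonist, was at 174 CPM in the control, 19.7 CPM at 15 min and 77.4 CPM at 60 min, and the decoy receptor Il1r2 at 422, 42.6 and 203 CPM in the same libraries. Il1rn had no UMI in cells led by Xcr1.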
